A study of Caenorhabditis elegans with 4 samples.

Results

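The miRNA family of *mir-44*, *mir-45*, *mir-61* and *mir-247* (cel-mir-44, cel-mir-45, cel-mir-61 and cel-mir-247) of *C. elegans* comprises 4 genes whose mature 3p strands share a seed, the short stretch near the 5′ end through which a miRNA recognizes its targets. The members were taken by name, as every row for a hairpin or a mature 5p or 3p strand of *mir-44*, *mir-45*, *mir-61* or *mir-247*. They make up 12 of the 697 rows of each library, that is 4 of 250 hairpins and 8 of 434 mature miRNAs.

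Small RNA of whole worms was sequenced from 4 strains, each with 1 library taken on day 0 of adulthood. *glp-1(e2144)* worms (strain CF1903) carry a mutation in a Notch receptor that the germline needs to proliferate, and WT worms (N2 Bristol) carry no transgene. Both were kept at 25 °C. ALG-1/OE worms (CT20) carry the integrated multicopy transgene *zaIs5*, in which the *alg-1* promoter drives a GFP fusion of the Argonaute ALG-1, with *rol-6(su1006)* as its marker. The control strain of CT20, called ctrl here (PE255), carries *feIs5* on chromosome X, in which the *sur-5* promoter drives a fusion of luciferase and GFP, with the same *rol-6(su1006)* marker. These strains were kept at 20 °C. Each library came from a pool of worms, about 1000 by the labels and fewer by the study's methods. With 1 library per strain, the spread between worm pools is unknown, and every interval given is a 95% interval of counting error only. A test on the reads compares these libraries, not the strains.

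A miRNA hairpin is cut by Drosha and Dicer into a duplex of a 5p and a 3p strand. An Argonaute such as ALG-1 keeps 1 of them as the guide, and the other is usually lost, so reads on the guide mostly outnumber those on its partner. In this family the conserved guide is the 3p strand. miR-44-3p and miR-45-3p have the same mature sequence, so a read of either cannot be assigned to a gene by its sequence, whereas their 5p strands differ. *mir-61* is known as a direct target of LIN-12, the other Notch receptor of the worm, in vulval precursor cells, where it represses *vav-1*. In whole worms, fewer cells that make a miRNA and less miRNA per cell cannot be told apart.

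The family lies on 3 chromosomes. The deposited positions of all 4 hairpins equal those of the WBcel235 annotation. The hairpin of *mir-44* is on the plus strand of chromosome II from 11890023 to 11890118, downstream of *mir-42* (117 bases away) and *mir-43* (15 bases away). *mir-42* belongs to the miR-35 family, which acts in embryos, and *mir-43* has another seed. The hairpin of *mir-45* is on the minus strand of the same chromosome from 11880944 to 11881039, 8983 bases from *mir-44*, and has no other miRNA on its strand within 10000 bases. A noncoding RNA gene, *ZK930.13*, lies antisense to it, and without a stated strand setting the reads of these cannot be told apart. The same limit holds for *mir-42* and *mir-43*, to which the noncoding RNA gene *ZK930.12* lies antisense. The hairpin of *mir-61* is on the minus strand of chromosome V from 11770060 to 11770156, with *mir-250* at 44 bases. The hairpin of *mir-247* is on the plus strand of chromosome X from 4756971 to 4757068, with *mir-797* at 40 bases. None of the 4 hairpins overlaps a protein-coding gene. The nearest is *top-2* for *mir-45* (355 bases), *ZK930.2* for *mir-44* (873 bases), *sel-11* for *mir-61* (160 bases) and *mls-2* for *mir-247* (1735 bases).

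Reads on mature miRNAs numbered 536907 in *glp-1(e2144)*, 211140 in WT, 238172 in ALG-1/OE and 175048 in ctrl. Levels are given in RPM, the reads of a strand per 1000000 of these mature miRNA reads, so a change common to all miRNAs does not show. A count of 0 allows up to 3 reads, or 5.59 RPM in *glp-1(e2144)* and between 12.6 and 17.1 in the other libraries. *glp-1* and *alg-1* mRNA are not measured in small RNA, so the strain labels could not be checked on the targeted genes. The miR-35 to miR-42 family, to which *mir-42* belongs, took 0.0756% of the mature reads of *glp-1(e2144)* worms, against 11.3% in WT worms. In ALG-1/OE worms it took 8.78%, against 6.51% in ctrl worms.

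The 8 mature strands together took 765 reads of *glp-1(e2144)* and 670 of WT, or 1425 (1326 to 1529) and 3173 (2938 to 3422) RPM. They took 579 reads of ALG-1/OE and 307 of ctrl, or 2431 (2237 to 2637) and 1754 (1563 to 1961) RPM. The family was thus lowest in *glp-1(e2144)* and highest in WT, without overlap of these intervals. Its mature strands are 21 or 22 bases long, so levels of strands were compared per read, though ligation and PCR can favour some sequences over others.

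miR-44-5p, the 5p strand of *mir-44*, had 32 reads in *glp-1(e2144)*, 215 in WT, 158 in ALG-1/OE and 93 in ctrl. miR-45-5p, its counterpart from *mir-45*, had 159 reads in *glp-1(e2144)*, 44 in WT, 44 in ALG-1/OE and 18 in ctrl. The *glp-1(e2144)* library, the deepest of the 4, thus held the fewest reads of miR-44-5p and the most of miR-45-5p. miR-44-3p had 254, 95, 82 and 49 reads in the same order of libraries, and miR-45-3p had 296, 113, 85 and 52.

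miR-61-3p, the guide of *mir-61*, had 21 reads in *glp-1(e2144)*, 186 in WT, 201 in ALG-1/OE and 80 in ctrl. Its partner miR-61-5p had 2 reads in *glp-1(e2144)*, 17 in WT, 9 in ALG-1/OE and 14 in ctrl. miR-247-3p had 1 read in *glp-1(e2144)*, 0 in WT, 0 in ALG-1/OE and 1 in ctrl. miR-247-5p had 0 in every library. Both strands of *mir-247* were therefore at or under the limit of 3 reads throughout, and no ratio was formed for them. Of the 8 strands, 6 had reads in both libraries of each comparison.

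**Figure D1:**
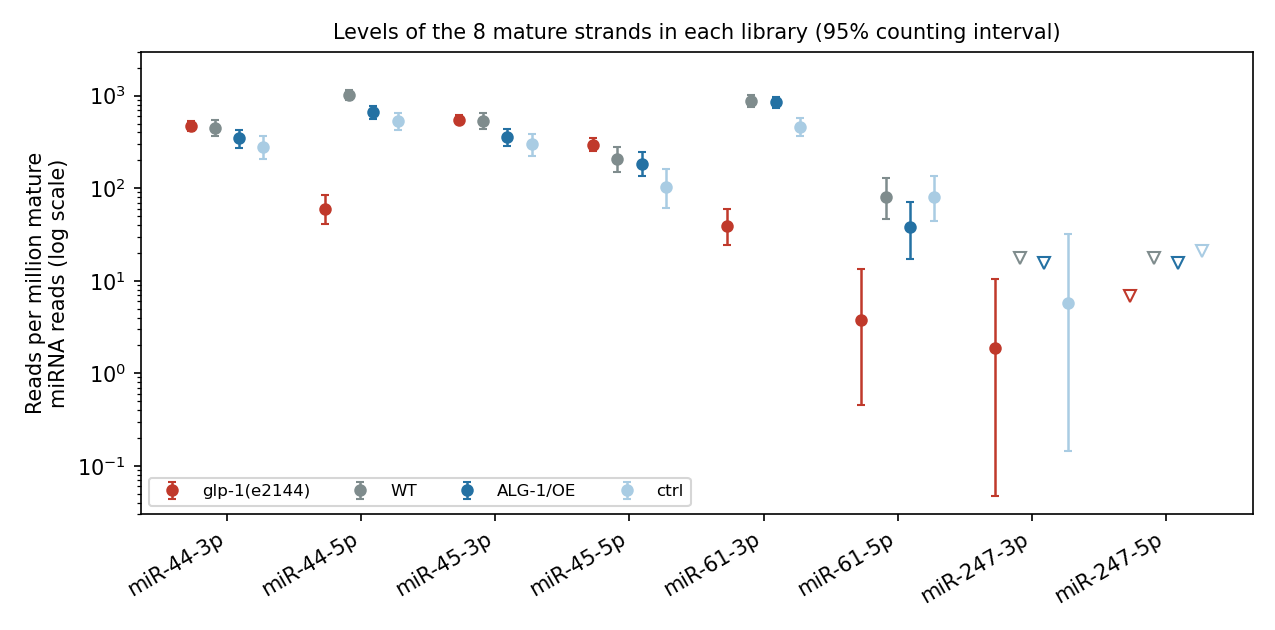
Level of each mature strand in each library, in RPM on a log axis, with 95% Clopper-Pearson intervals of counting error. Open triangles give the upper limit of a strand with 0 reads. miR-44-5p (59.6 RPM) and miR-61-3p (39.1) sit far lower in *glp-1(e2144)* than in WT (1018 and 881), whereas miR-44-3p and miR-45-3p overlap between these libraries.

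The order of the levels differed between libraries. In *glp-1(e2144)*, miR-45-3p was highest with 551 RPM (490 to 618), followed by miR-44-3p with 473 (417 to 535), and their intervals overlap. miR-45-5p followed with 296 (252 to 346), then miR-44-5p with 59.6 (40.8 to 84.1) and miR-61-3p with 39.1 (24.2 to 59.8), and the last pair again overlaps.

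In WT, miR-44-5p was highest with 1018 RPM (887 to 1164), and miR-61-3p followed with 881 (759 to 1017), and these intervals overlap. miR-45-3p with 535 (441 to 643) and miR-44-3p with 450 (364 to 550) overlapped next, and miR-45-5p had 208 (151 to 280). In ALG-1/OE the order began with miR-61-3p at 844 (731 to 969) and miR-44-5p at 663 (564 to 775), whose intervals overlap. In ctrl it began with miR-44-5p at 531 (429 to 651) and miR-61-3p at 457 (362 to 569), which overlap too. Among all mature miRNAs with reads, miR-61-3p ranked 129 of 230 in *glp-1(e2144)* and 57 of 231 in WT, and 59 of 232 in ALG-1/OE and 72 of 215 in ctrl.

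The comparison of *glp-1(e2144)* with WT asks which miRNAs differ in long-lived worms without a germline. In this comparison, miR-44-5p and both strands of *mir-61* fell, whereas the shared guide of *mir-44* and *mir-45* was at nearly the same level. miR-61-3p was 22.5-fold lower in *glp-1(e2144)* than in WT, a log2 ratio of -4.49 (-5.22 to -3.84; exact binomial test of the reads, Benjamini-Hochberg adjustment over 199 miRNAs, adjusted p = 2.1e-76). miR-44-5p was 17.1-fold lower, a log2 ratio of -4.09 (-4.68 to -3.55; adjusted p = 4.6e-82 by the same exact test). miR-61-5p, with only 2 reads against 17, had a log2 ratio of -4.43 (-7.59 to -2.36; adjusted p = 1.7e-07, same exact test).

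The other strands lay nearer to -0.013, the median over all 199 miRNAs measured. The log2 ratio was 0.072 (-0.27 to 0.43) for miR-44-3p and 0.043 (-0.27 to 0.37) for miR-45-3p, with adjusted p = 0.80 and 0.88 in the exact test. Their sign turned under other scalings: with miR-35 to miR-42 left out of the total it was -0.10 for miR-44-3p and -0.13 for miR-45-3p. miR-45-5p had a log2 ratio of 0.51 (0.017 to 1.02), and its adjusted p was 0.086 in the exact test. The study scaled to all reads generated, so its calls can differ from those here. It names *mir-45* among the genes of miRNAs raised in both *glp-1(e2144)* and ALG-1/OE. With the mature miRNA total and the study's cut-off of 1 on the log2 scale, 3 of the 6 strands measured lay below -1. Of all miRNAs measured, 27.1% did. Above 1 lay 0 of the 6 strands, beside 9.55% of all. The same 3 strands also had an adjusted p under 0.05, as did 17.6% of all on the lower side and 5.03% on the upper side. The median over the 6 strands was -2.03, which lies in the gap between these 3 strands and the rest. It counts both rows of the shared guide.

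**Figure D2:**
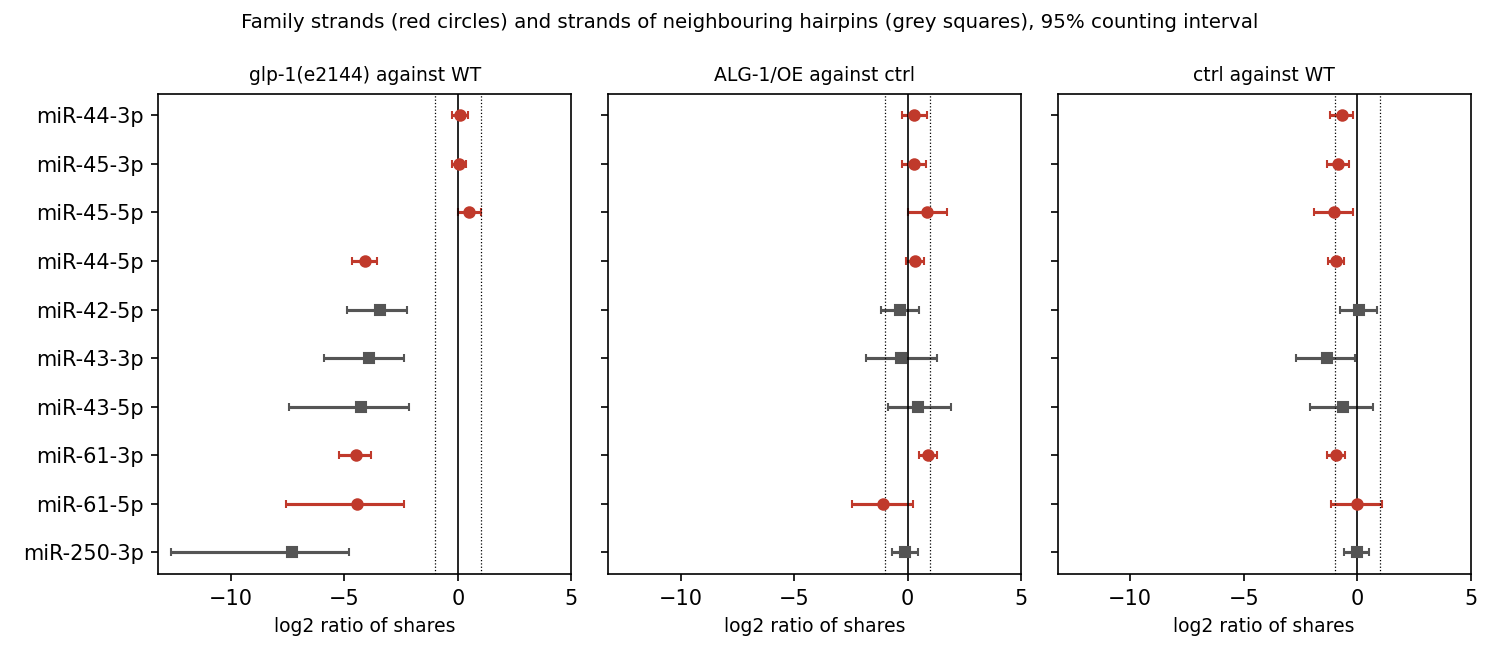
Log2 ratio of shares for the family strands (red circles) and for strands of hairpins beside them (grey squares), with 95% intervals of counting error, in each comparison. Dotted lines mark a log2 ratio of 1 and -1. In *glp-1(e2144)* against WT, miR-44-5p (-4.09) stands with the strands of *mir-42* and *mir-43*, and miR-61-3p (-4.49) lies near them, while miR-45-5p (0.51) does not.

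The ratio of count ratios of a pair of strands does not depend on how the libraries are scaled. In *glp-1(e2144)* against WT, miR-44-5p differed from miR-45-5p by -4.60 on the log2 scale (exact conditional 95% interval -5.37 to -3.84). miR-44-3p differed from miR-45-3p by 0.030 (-0.45 to 0.51). miR-61-3p differed from the sum of miR-44-3p and miR-45-3p by -4.55 (-5.31 to -3.84). It differed from miR-44-5p by -0.40 (-1.32 to 0.50), an interval that includes 0.

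The 5p and 3p strands thus gave unlike pictures of how *mir-44* and *mir-45* share their reads. Of the reads on both 5p strands, miR-44-5p took 16.8% (11.8% to 22.8%) in *glp-1(e2144)* and 83.0% (77.9% to 87.4%) in WT, and 78.2% (71.9% to 83.7%) in ALG-1/OE and 83.8% (75.6% to 90.1%) in ctrl. Of the reads on both 3p strands, miR-44-3p took 46.2% (41.95% to 50.5%) in *glp-1(e2144)* and 45.7% (38.8% to 52.7%) in WT, and 49.1% (41.3% to 56.9%) in ALG-1/OE and 48.5% (38.4% to 58.7%) in ctrl. The 3p split was near equal in all 4 libraries and the 5p split was not. How reads with several matches were placed is not given in the sources used here. The row of a single 3p strand is therefore not a measure of its own gene, and the sum of both rows is used where the guide is meant.

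**Figure D3:**
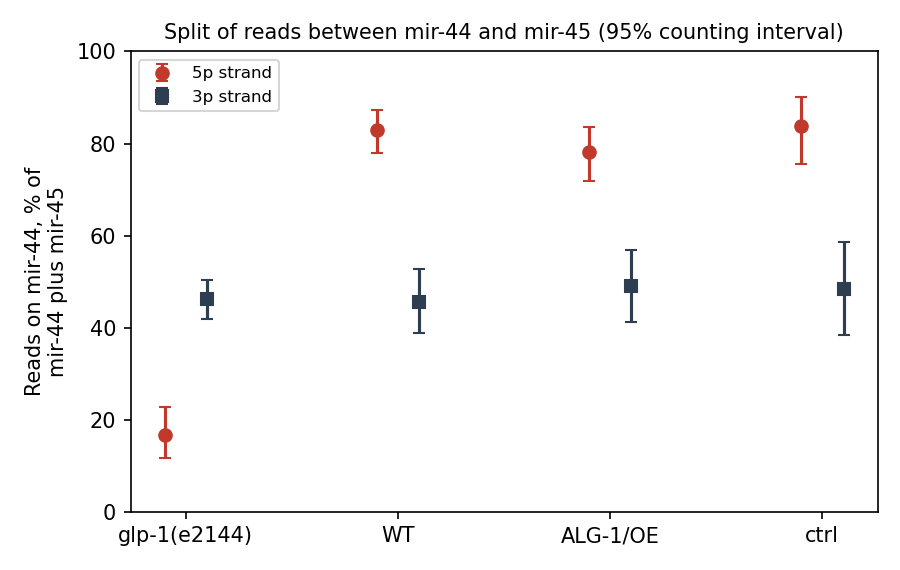
Share of reads on *mir-44* among reads on *mir-44* plus *mir-45*, in percent, for the 5p strands (circles) and the 3p strands (squares) of each library, with 95% Clopper-Pearson intervals. The 5p share is 16.8% in *glp-1(e2144)* and between 78.2% and 83.8% in the other libraries, while the 3p share stays between 45.7% and 49.1%.

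Summed over *mir-44* and *mir-45*, the guide took 550 reads of *glp-1(e2144)*, against 208 of WT, and 167 of ALG-1/OE, against 101 of ctrl. Its level was 1024 RPM (941 to 1114) in *glp-1(e2144)* and 985 (856 to 1128) in WT, a log2 ratio of 0.056 (-0.18 to 0.29). The 3p strands took 74.2% (70.9% to 77.3%) of the reads of these hairpins in *glp-1(e2144)* and 44.5% (40.0% to 49.2%) in WT, and 45.3% (40.1% to 50.5%) in ALG-1/OE and 47.6% (40.8% to 54.6%) in ctrl. In WT, ALG-1/OE and ctrl, the 5p strands therefore had about as many reads as the guide or more. For *mir-61* the 3p strand took 91.3% (72.0% to 98.9%) in *glp-1(e2144)* and 91.6% (86.9% to 95.05%) in WT, and 95.7% (92.02% to 98.02%) in ALG-1/OE and 85.1% (76.3% to 91.6%) in ctrl. Among the 3p strands of the family, miR-61-3p made up 3.67% (2.29% to 5.56%) in *glp-1(e2144)* and 47.2% (42.2% to 52.3%) in WT, and 54.6% (49.4% to 59.8%) in ALG-1/OE and 43.96% (36.6% to 51.5%) in ctrl.

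The difference between the strands was also set beside that of other hairpins, for which neither strand had fewer than 10 reads in a library. In *glp-1(e2144)* against WT, the 5p strand of *mir-44* lay below its 3p strand by -4.17 on the log2 scale. This was the lowest of 31 hairpins, whose median was -0.070, and rests on a 3p row shared with *mir-45*. The highest of the 31 was 3.45, for *mir-52*. *mir-45* stood at 0.46, with the same limit on its 3p row. In ALG-1/OE against ctrl, *mir-44* stood at 0.022 and *mir-45* at 0.58, within the range of 32 hairpins from -1.004 to 1.46.

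**Figure D4:**
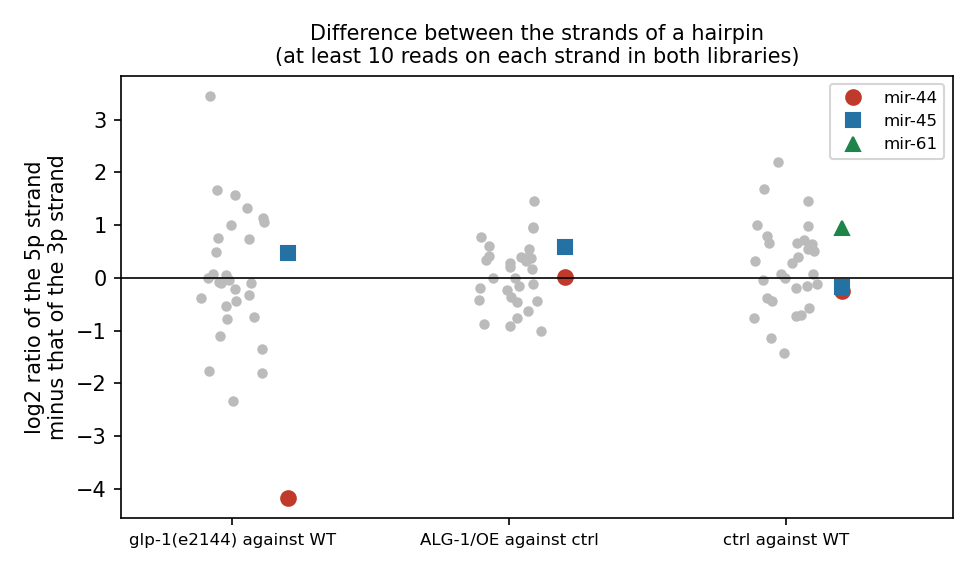
Log2 ratio of the 5p strand minus that of the 3p strand of a hairpin, for hairpins with no strand under 10 reads, in each comparison. Grey points are other hairpins, the red circle is *mir-44*, the blue square *mir-45* and the green triangle *mir-61*. *mir-44* is lowest in *glp-1(e2144)* against WT (-4.17) and within the range of the others in ALG-1/OE against ctrl (0.022). The 3p rows of *mir-44* and *mir-45* hold reads of the same sequence, so neither value measures its hairpin alone.

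The hairpins beside the family members were examined in the same comparison. The strands next to *mir-44* had few reads, and *ZK930.12* lies antisense to their hairpins. miR-42-5p had 7 reads in *glp-1(e2144)* worms, against 30 in WT worms, a log2 ratio of -3.45 (-4.88 to -2.23), and miR-42-3p had 0 against 14, at least 11.9-fold lower with a floor of 3 reads. miR-43-3p had 4 reads in *glp-1(e2144)* worms, against 24 in WT worms (log2 ratio -3.93, -5.92 to -2.39), and miR-43-5p had 2 and 15 (-4.25, -7.43 to -2.15). miR-44-5p differed from miR-42-5p by -0.65 (-2.02 to 0.90) and from miR-43-3p by -0.16 (-1.84 to 1.92), so any difference among these strands was not detectable at this depth.

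Beside *mir-61*, miR-250-3p had 1 read in *glp-1(e2144)* worms, against 63 in WT worms, a log2 ratio of -7.32 (-12.6 to -4.79). miR-250-5p had 0 and 16 reads, at least 13.6-fold lower with the same floor. miR-61-3p differed from miR-250-3p by 2.83 (0.13 to 8.22), and only 1 read stands behind the upper bound. miR-42-5p, miR-43-3p, miR-43-5p and miR-250-3p all lay below -1 with an adjusted p under 0.05, as did 17.6% of all 199 miRNAs measured. Among the neighbour strands named, the highest adjusted p was 1.5e-06, for miR-43-5p (exact binomial test, over all 199 miRNAs). miR-797-3p, beside *mir-247*, had 12 reads in *glp-1(e2144)* worms, against 2 in WT worms (log2 ratio 1.24, -0.93 to 4.44). Thus miR-42-5p, both strands of *mir-43* and miR-250-3p fell, as did miR-44-5p and both strands of *mir-61* encoded beside them. Leaving miR-35 to miR-42 out of the total moved the median of all log2 ratios by -0.17.

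The comparison of ALG-1/OE with ctrl asks which miRNAs differ when ALG-1 is overexpressed. miR-61-3p had the largest number of reads behind it, 201 in ALG-1/OE worms, against 80 in ctrl worms, and was 1.85-fold higher, a log2 ratio of 0.88 (0.50 to 1.28; exact binomial test with adjustment over 204 miRNAs, adjusted p = 1.5e-05). This lies below the cut-off of 1. The level of miR-61-3p in ALG-1/OE, 844 RPM (731 to 969), was near that of WT at 25 °C, 881 (759 to 1017). In ctrl it was 457 (362 to 569). Whether the difference comes from ALG-1/OE or from a low ctrl library was not tested. The sum of miR-44-3p and miR-45-3p had a log2 ratio of 0.28 (-0.084 to 0.65), and miR-44-5p one of 0.32 (-0.058 to 0.71). miR-45-5p, with 44 reads in ALG-1/OE worms, against 18 in ctrl worms, had a log2 ratio of 0.85 (0.024 to 1.72), and its adjusted p was 0.12 in the exact test.

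miR-61-5p was the only strand with a negative ratio, -1.08 (-2.47 to 0.23), from 9 reads in ALG-1/OE worms, against 14 in ctrl worms, and it did not pass the exact test (adjusted p = 0.23). It made 1 of 6 strands below the lower cut-off, where 6.86% of all 204 miRNAs measured were, or 0.98% with an adjusted p under 0.05. Above the upper cut-off were 0 of the 6 strands, against 11.3% of all, or 1.96% with an adjusted p under 0.05. These shares depend on the scaling, since 23 miRNAs lay above and 14 below with the total of mature reads, and 14 above and 17 below with TMM factors, which scale libraries by a trimmed mean of the ratios. The median of the 6 strands, with both rows of the shared guide counted, was 0.31 and that of all miRNAs measured 0.14.

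Independent of the scaling, miR-61-3p lay above the sum of miR-44-3p and miR-45-3p by 0.60 (0.064 to 1.14) in ALG-1/OE against ctrl. It lay above miR-44-5p by 0.56 (0.015 to 1.11) and above its neighbour miR-250-3p by 1.00 (0.31 to 1.68). From miR-45-5p it differed by 0.040 (-0.93 to 0.96), an interval that includes 0. The ctrl reads behind the 1.00 also enter ctrl against WT, where miR-61-3p lay below miR-250-3p by -0.91 (-1.60 to -0.22). In ALG-1/OE against ctrl, miR-61-5p lay below its partner miR-61-3p by -1.97 (-3.41 to -0.58). In ctrl against WT, which shares the ctrl reads, this difference was 0.94 (-0.27 to 2.12), an interval that includes 0. miR-250-3p had 64 reads in ALG-1/OE worms, against 51 in ctrl worms, a log2 ratio of -0.12 (-0.67 to 0.44). Between miR-44-5p and miR-45-5p the difference in ALG-1/OE against ctrl was -0.52 (-1.49 to 0.39), which includes 0.

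The difference between ctrl and WT served as a measure of the distance between control worms. Strain, transgene and temperature cannot be told apart in it, and it shares the WT library with the comparison of *glp-1(e2144)* and the ctrl library with that of ALG-1/OE. miR-61-3p had 80 reads in ctrl, against 186 in WT (log2 ratio -0.95, -1.34 to -0.56), and miR-44-5p had 93 against 215 (-0.94, -1.31 to -0.58). The sum of miR-44-3p and miR-45-3p had 101 and 208 reads (-0.77, -1.13 to -0.42). Of the 6 strands, 5 had an adjusted p under 0.05 in the exact binomial test and a negative ratio, as did 20.2% of all 198 miRNAs measured. The 5 include both rows of the guide shared by *mir-44* and *mir-45*. The exception was miR-61-5p with 14 reads in ctrl and 17 in WT (-0.0097, -1.14 to 1.10), whose sign turned with TMM factors (0.056).

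The family median, which counts both rows of the shared guide, was -0.89, beside 0.037 for all 198 miRNAs measured. Only miR-45-5p, at -1.02 (-1.90 to -0.20), lay past the lower cut-off, 1 of 6 strands beside 11.1% of all, or 4.55% with an adjusted p under 0.05, which it also had. Its value was -0.95 with TMM factors, within the cut-off. Above the upper cut-off were 0 of 6, beside 10.6% of all, or 5.05% with an adjusted p under 0.05. The intervals of the differences between members included 0 in this pair, with 0.080 (-0.83 to 1.04) between miR-44-5p and miR-45-5p and -0.0082 (-0.55 to 0.53) between miR-61-3p and miR-44-5p. miR-250-3p had 51 reads in ctrl, against 63 in WT, and miR-61-3p lay below it by -0.91 (-1.60 to -0.22).

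The mature miRNAs with the most similar profile were looked up for each of the 5 family strands with at least 50 reads in total. Likeness was the Euclidean distance between log2 profiles over the 4 libraries, each centred on its mean, among 139 other miRNAs with at least 50 reads. For miR-44-5p the nearest were miR-52-3p (distance 0.42, 15 reads in *glp-1(e2144)* worms, against 81 in WT worms), miR-61-3p (0.67) and miR-42-5p (0.75). For miR-61-3p they were miR-41-3p of the miR-35 family (0.65), miR-44-5p (0.67) and miR-4813-5p (0.87).

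miR-45-5p stood nearest to miR-48-3p (0.31), miR-87-5p (0.49) and miR-45-3p (0.52). miR-44-3p stood nearest to miR-57-5p (0.091), miR-64-5p (0.16) and miR-45-3p (0.17), and miR-45-3p to miR-44-3p (0.17), miR-57-5p (0.24) and miR-243-3p (0.26). With only 4 libraries, these distances describe the libraries at hand. As the rows of miR-44-3p and miR-45-3p hold reads of the same sequence, their likeness to each other says nothing about their genes.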

How the data were processed

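The counts are raw reads per hairpin and per mature strand, as the authors deposited them. Per the study's methods, adapters were trimmed with the Fastx-ToolKit and Bowtie2 placed the reads on ce10. The labels name a SOLiD library kit and the methods an Illumina instrument. The counting tool, strand setting and treatment of reads with several matches are not given in the sources used here. Of 250 hairpins, 243 lie at WBcel235 coordinates in the annotation used here. The series text calls CT20 a control strain, but the sample labels give PE255 that role and were followed.

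For a name on several rows, the row with the most reads was kept. The study scaled to all reads generated, a total not used here, and counts were scaled to the mature miRNA total instead. Another total would add a single constant to every log2 ratio of a comparison, whereas differences between strands do not depend on it. Log2 ratios took no pseudocount and needed reads in both libraries. Their intervals are Clopper-Pearson, and the exact binomial test is two-sided, with Benjamini-Hochberg adjustment over all miRNAs measured. With 1 library per strain, no model that estimates a variance was fitted. In counts simulated for *glp-1(e2144)* against WT, with 200 of 434 miRNAs changed, intervals held the true ratio for 94.7% of 206 miRNAs. The simulation held counting error only, with the library totals known. It therefore cannot show how spread between worm pools or error in the scaling would affect the intervals.

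Alternatives were 4 other scalings (hairpin total, a total leaving out miR-35 to miR-42, TMM of edgeR 4.0.16, median of ratios of DESeq2 1.42.0), a pseudocount of 0.5, a minimum of 10 reads, all rows as listed, a 1.5-fold cut-off, an adjusted p beside the cut-off, summed 3p rows and the hairpin row as denominator. A pseudocount on differences between strands was added after seeing the data. Named miRNAs were all family rows, strands of hairpins within 10000 bases on the same strand, and the 3 nearest profiles of each member with at least 50 reads. Other miRNAs with the same seed, also in the naming rule, were not looked up. The members and lists were chosen with earlier results of these data known. Software was Python 3.11.15 with scipy 1.17.1, pandas 2.3.3 and numpy 2.4.6, and R 4.3.3.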

Additional observations from a re-analysis of the deposited data

Results flagged for a closer look

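The hairpin row of *mir-61* held 5 reads in ctrl that lay on neither mature strand (99 hairpin reads and 94 strand reads), above the limit of 3 reads that a count of 0 allows. The same difference was 1 read in ALG-1/OE, 0 in *glp-1(e2144)* and 0 in WT, and at most 2 reads in any library for the other hairpins of the family.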

How the results depend on the processing

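No paired analysis was possible because each strain has 1 library, and no library could be left out. In *glp-1(e2144)* against WT, 3 strands were called under every alternative except a minimum of 10 reads, which leaves miR-61-5p out and gives 2. With miR-35 to miR-42 left out of the total, which shifts all ratios by -0.17, the sign turned for miR-44-3p (-0.10) and miR-45-3p (-0.13), and with TMM factors for miR-45-3p (-0.0029). In ctrl against WT it turned for miR-61-5p with TMM factors (0.056). In ALG-1/OE against ctrl, TMM factors shifted all ratios by -0.17 and median of ratios by -0.14. There, 1 strand was called, and 0 with the adjusted p added or at least 10 reads, and 3 at 1.5-fold. In ctrl against WT, 1 strand was called, 3 with miR-35 to miR-42 left out, 0 with TMM factors or the pseudocount, and 5 at 1.5-fold. Over all mature miRNAs, 73 were called in *glp-1(e2144)* against WT, 107 with the pseudocount, 45 with the adjusted p added, 110 at 1.5-fold and 30 with at least 10 reads. In ALG-1/OE against ctrl, 37 were called, and 67 with the pseudocount, 6 with the adjusted p, 66 at 1.5-fold and 6 with at least 10 reads. In ctrl against WT, 43 were called, and 88, 19, 96 and 13 under the same alternatives. The pseudocount also adds miRNAs with reads in 1 library only, and the minimum of 10 reads removes low ones. Depth limits the strands with few reads: miR-247-3p and miR-247-5p gave no ratio, and miR-61-5p, miR-43-5p, miR-797-3p and miR-250-3p had wide intervals in *glp-1(e2144)* against WT.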
